A study of Mus musculus with 11 samples.

Results

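The transcripts described here come from 8 genes that T cells use to report signals through the T cell receptor (TCR): the nuclear receptors Nr4a1, Nr4a2 and Nr4a3, the zinc-finger factors Egr1, Egr2 and Egr3, and the surface proteins Cd69 and Cd5. They were taken by symbol from a table of 52997 gene rows, in which all 8 symbols were found, and all 8 were among the 12932 genes abundant enough to be tested. The libraries held regulatory T (Treg) cells of vTreg53 Tg+ donors on the C57BL/6 background. These donors carry a transgenic TCR taken from a Treg clone of visceral adipose tissue (VAT). Donor cells carried a Foxp3-GFP reporter allele, came from pooled spleen and lymph nodes (Spl/LN), and were injected into CD45.1 B6 recipients. At 6 weeks after transfer the recipients in the immunized groups were given the peptide Fat1562, an agonist for this TCR, in CFA under the skin, and 1 week later a boost in IFA into the peritoneum. By the methods, cells were sorted 1 week after the boost. For the control mice the sample labels read PBS and unimmunized, whereas the paper describes the adjuvants without peptide. It therefore cannot be told apart here whether a difference between immunized and control mice includes an effect of the adjuvant. The term adjuvant alone is used below. The titles give 15 wk and male for every library. The 4 groups were Spl/LN with adjuvant alone (n = 3), Spl/LN with adjuvant/Fat1562 (n = 3), VAT with adjuvant alone (n = 2) and VAT with adjuvant/Fat1562 (n = 3), each library being 1000 double-sorted clonotype+ cells. Clonotype+ means stained for Vα2 and Vβ4, the V segments of the transgenic TCR, so no group stands for the Treg cells of the tissue. This staining does not show that all cells of a group shared 1 TCR specificity.

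NR4A and EGR genes are immediate early genes. Engagement of the TCR opens calcium, protein kinase C and Ras-ERK pathways, and within an hour these switch on transcription of both families without new protein synthesis. NR4A proteins are orphan nuclear receptors that in T cells follow the strength of TCR signal, sustain Foxp3 in Treg cells and restrain effector programs, and a Nr4a1 reporter is widely used as a gauge of recent antigen encounter. EGR1 drives early growth genes, while EGR2 and EGR3 are linked to tolerance and induce brakes on TCR signaling. CD69 is an early activation antigen that holds cells in tissues by removing the sphingosine-1-phosphate receptor from the surface, and CD5 is an inhibitory receptor whose level is set by TCR affinity during development and changes slowly. NR4A, EGR1 and CD69 also answer to stimuli other than the TCR, among them cyclic AMP, cytokines and the handling of tissue.

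Promoter sequence is shown for the NR4A genes and Egr2, whose transcripts parted between tissues, with the elements best known for carrying signals to immediate early genes. Of the 8 genes, RefSeq promoter windows (GRCm38.p6, 250 bases before to 50 after the transcript start) were used for Nr4a1, Nr4a2, Nr4a3, Egr2 and Cd5. The stretches below precede the start on the strand of the gene, 5′ to 3′, and capitals mark matches on either strand to TGACG, the core of the cyclic AMP response element (CRE) that CREB and ATF proteins bind, to the EGR motif GCGNGGGCG, or to a CArG box, the element bound by serum response factor. The Nr4a1 stretch lies at chr15:101266596-101266845 (+ strand), in an intron of longer Nr4a1 transcripts in GENCODE. The Nr4a2 stretch is chr2:57124004-57124253 (- strand), upstream of the gene. The Nr4a3 stretch is chr4:48045055-48045152 (+ strand), cut after 98 bases where GENCODE places the first exon. Egr2 has 5 RefSeq starts, and 3 of their windows overlap and share the same 3 matches, more than the other two hold. The first of the 3 is printed, chr10:67537619-67537868 (+ strand), in an intron of the longest Egr2 transcript.

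Nr4a1: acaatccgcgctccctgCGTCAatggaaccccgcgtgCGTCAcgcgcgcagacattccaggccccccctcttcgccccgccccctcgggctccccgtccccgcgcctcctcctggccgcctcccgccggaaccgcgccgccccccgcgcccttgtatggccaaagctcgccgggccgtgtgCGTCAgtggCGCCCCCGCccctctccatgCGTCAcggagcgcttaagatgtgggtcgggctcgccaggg

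Nr4a2: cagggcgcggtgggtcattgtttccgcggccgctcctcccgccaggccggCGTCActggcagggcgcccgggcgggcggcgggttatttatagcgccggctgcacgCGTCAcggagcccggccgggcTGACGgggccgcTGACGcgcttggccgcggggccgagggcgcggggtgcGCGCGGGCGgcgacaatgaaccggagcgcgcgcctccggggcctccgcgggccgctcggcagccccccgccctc

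Nr4a3: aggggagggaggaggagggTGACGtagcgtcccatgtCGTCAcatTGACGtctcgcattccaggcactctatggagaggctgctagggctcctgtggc

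Egr2: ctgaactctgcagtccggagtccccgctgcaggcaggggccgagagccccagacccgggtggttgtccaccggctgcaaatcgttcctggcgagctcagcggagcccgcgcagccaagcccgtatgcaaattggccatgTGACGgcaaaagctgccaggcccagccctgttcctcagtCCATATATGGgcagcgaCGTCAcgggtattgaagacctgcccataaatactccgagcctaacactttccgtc

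Each of the 3 NR4A windows held 4 matches to TGACG, the last of those in Nr4a3 lying past the end of the stretch printed. At least 4 such matches were found in 76 of 32851 promoter windows (0.231%), and at least 1 in 20.8%. Nr4a1 and Nr4a2 each held 1 EGR motif, which 5.55% of windows hold. The Egr2 window held a CArG box between 2 TGACG matches, and CArG boxes were found in 1.63% of all windows and in 4 of the 5 Egr2 windows, of which 3 hold the same box. None of the windows used for Nr4a1, Nr4a2, Nr4a3, Egr2 and Cd5 held the AP-1 motif TGANTCA (7.81% of windows). Windows of Egr1, Egr3 and Cd69 were not searched. TGGAAA, the core bound by NFAT (21.4%), was found in the Cd5 window and in 1 Egr2 window, where it overlapped a CArG box. These matches describe letters only, and no binding was measured.

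**Figure D1:**
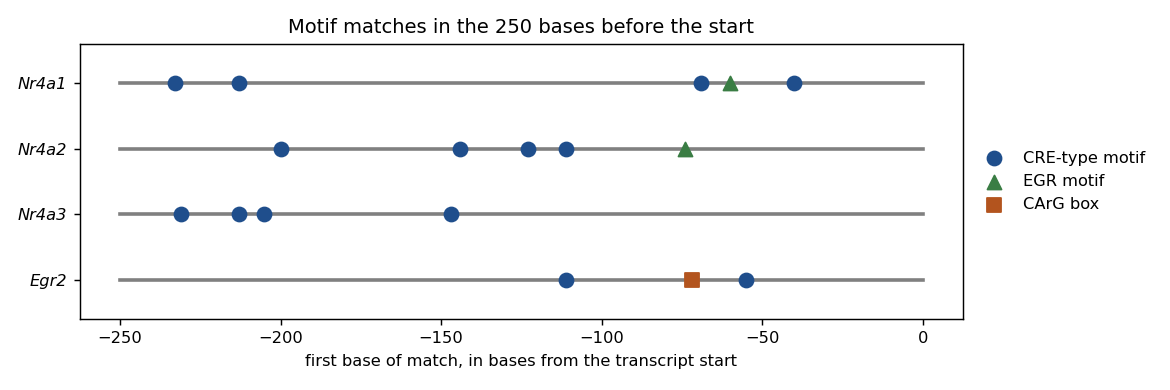
Matches to the CRE-type motif (circles), the EGR motif (triangles) and the CArG box (square) in the 250 bases before the transcript start of Nr4a1, Nr4a2, Nr4a3 and Egr2, plotted by the distance of the first base of the match from the start. Each NR4A gene has 4 CRE-type matches, and the CArG box of Egr2 begins 72 bases before the start (position -72).

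Total counts ran from 4490242 to 6570057 per library. Foxp3, which defines the lineage, had group means between 7113 and 9848 normalized counts (counts corrected for TMM-scaled library size, on the scale of an average library), and Cd4 between 2400 and 3403. Macrophage markers summed to between 32.5 and 146 normalized counts per library over 8 genes, and 7 adipocyte and stromal markers to between 15.2 and 45.7. The sums were 97.9 to 195 for 6 markers of CD8 and NK cells, and 242 to 595 for 4 endothelial markers. Most of these last 2 sums was Cd8b1 (group means 90.1 to 183) and Pecam1 (264 to 529). Group means of Cd8a, Cdh5, Kdr and Tek were at most 4.67. The macrophage gene Adgre1 and the adipocyte gene Adipoq were at 0 in both VAT libraries with adjuvant alone, but other markers of these lists were not. Group means there were 15.1 for Cd68, 14.5 for Lyz2 and 9.67 for Fabp4. Compared with Spl/LN with adjuvant alone, markers differed in both directions. Means of Cd68, C1qa and Fabp4, among others, were higher in VAT, and those of Lyz2, Itgam, Csf1r and Col1a1, among others, were lower. Of 7 B cell and plasma cell markers, 4 were tested, and the list summed to between 17159 and 17189 normalized counts per library in Spl/LN with adjuvant alone, 12132 and 13184 in Spl/LN with adjuvant/Fat1562, 6188 and 30497 in VAT with adjuvant alone and 6417 and 8634 in VAT with adjuvant/Fat1562. Nearly all of each sum was Ighm, and 1 VAT library with adjuvant alone stood apart, with Ighm at 28596 (6025 in the other, 6341 to 17058 in the 9 Spl/LN and immunized VAT libraries) and Jchain at 1734 (63.0 in the other, 0 to 526 in those 9). Cd79b reached 204, Cd79a 25.6, and Ms4a1 and Pax5 no more than 6.52 in any library. After immunization in VAT 2 of the 4 fell (Ighm and Jchain), against 3.97% of all tested genes, Cd79b was lower in VAT than in Spl/LN with adjuvant/Fat1562 (log2 -1.18), and the part of these transcripts in the results below was not tested. With either VAT library of adjuvant alone left out, the number of the 8 genes called in each comparison between tissues and in VAT was as given below. Because these are bulk samples, fewer cells expressing a gene and less of its RNA per cell cannot be told apart. VAT was minced and digested with collagenase, and no such step is described for Spl/LN, so tissue and digestion cannot be told apart in any comparison of VAT with Spl/LN. Both VAT groups came through the same procedure as the methods describe it. The paper reports that Fat1562 strongly expanded clonotype+ Treg cells in VAT, so the cells sorted were scarcer in control VAT. The part of this in the results below was not tested.

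Between tissues, the NR4A genes and Cd69 were higher in VAT whichever injection the mice had received, whereas Egr2 was lower and Egr1 changed sides. With adjuvant alone, 5 of the 8 transcripts were higher in VAT than in Spl/LN (Nr4a1, Nr4a2, Nr4a3, Egr1 and Cd69) at an adjusted p under 0.05 by edgeR, against 9.09% of all tested genes. Egr2 alone was lower, against 7.18% of tested genes. With adjuvant/Fat1562, 4 were higher (Nr4a1, Nr4a2, Nr4a3 and Cd69), against 8.26% of tested genes, and 2 were lower (Egr1 and Egr2), against 6.73%. The counts of lower transcripts, 1 and 2 of 8, are too small to be set apart from those shares.

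**Figure D2:**
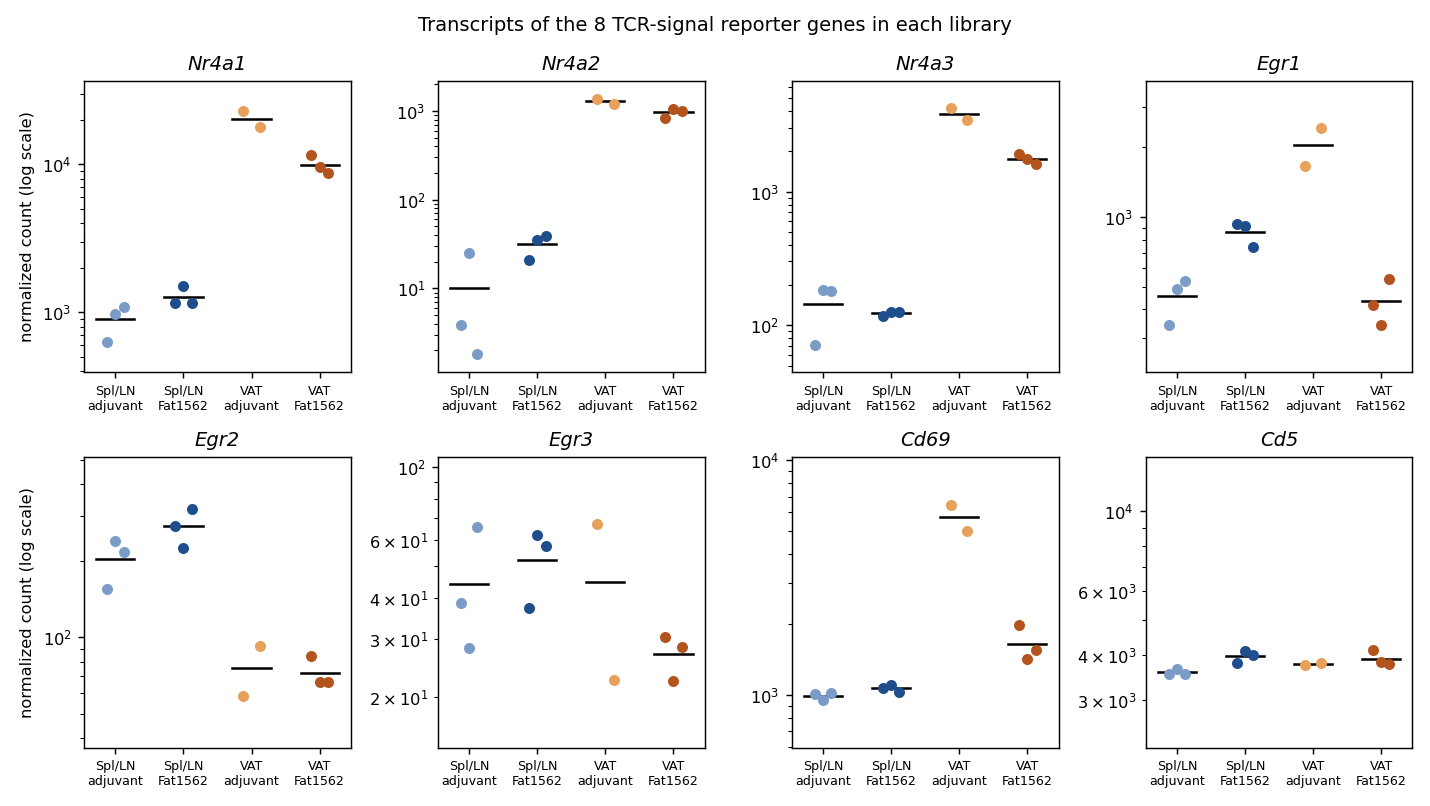
Normalized counts of the 8 transcripts in each of the 11 libraries (points, log axis) with group means (bars). In the Nr4a1, Nr4a2, Nr4a3 and Cd69 panels all 5 VAT libraries lie above all 6 Spl/LN libraries, in the Egr2 panel all 5 lie below, and in the Cd5 panel all libraries lie between 3542 and 4137.

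Nr4a1, which encodes NUR77, was the most abundant of the family. Its normalized counts in Spl/LN were 631, 979 and 1091 with adjuvant alone and 1149, 1515 and 1159 with adjuvant/Fat1562. The VAT libraries held 22901 and 17985 with adjuvant alone and 11512, 9602 and 8790 with adjuvant/Fat1562. The VAT libraries therefore formed 2 separate ranges, both far above Spl/LN. The difference between tissues was 22.7-fold with adjuvant alone (log2 fold change 4.50 ± 0.19 SE, edgeR adjusted p = 2.01e-11) and 7.83-fold with adjuvant/Fat1562 (2.97 ± 0.17, adjusted p = 2.16e-09). By p-value the first of these stood 15th among all tested genes.

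Nr4a2, which encodes NURR1, was close to absent from Spl/LN cells of control mice, where the libraries held 4, 24 and 2 reads, or 3.87, 25.0 and 1.83 normalized counts. With adjuvant/Fat1562 the Spl/LN values were 21.0, 35.3 and 39.3. VAT libraries of control mice held 1358 and 1202, and those of immunized mice 835, 1055 and 1007, so that no VAT library came near a Spl/LN library. The log2 fold change between tissues was 7.01 ± 0.38 with adjuvant alone (129-fold, adjusted p = 4.92e-10), the 21st largest increase of any tested gene, and 4.91 ± 0.31 with adjuvant/Fat1562 (30.0-fold, adjusted p = 6.45e-09). The first of these rests on few reads in Spl/LN, and without Spl/LN adjuvant replicate 2, which held 24 of them, it was 8.76.

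Nr4a3, which encodes NOR1, gave 71.5, 184 and 180 normalized counts in Spl/LN with adjuvant alone and 118, 126 and 126 with adjuvant/Fat1562. In VAT the values were 4192 and 3417 with adjuvant alone and 1908, 1757 and 1603 with adjuvant/Fat1562. All VAT libraries lay above all Spl/LN libraries, by 26.2-fold with adjuvant alone (log2 4.71 ± 0.24, adjusted p = 1.80e-10) and 14.2-fold with adjuvant/Fat1562 (3.83 ± 0.22, adjusted p = 2.35e-09).

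Together the 3 NR4A genes took 0.0140 to 0.0314% of all counts in the Spl/LN libraries, 0.403 to 0.495% in VAT with adjuvant alone and 0.210 to 0.254% in VAT with adjuvant/Fat1562. The ratio of Nr4a1 to Nr4a3 was steadier in VAT than in Spl/LN, as a description. There were 5.26 to 6.03 Nr4a1 reads for each Nr4a3 read in the 5 VAT libraries, and 5.33 to 11.99 in the 6 Spl/LN libraries. The Spl/LN ratios rest on 74 to 197 Nr4a3 reads per library.

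After Fat1562 immunization the reporters that moved in VAT fell, and Egr1 alone moved in Spl/LN, upwards. In VAT 4 of the 8 were called lower (Nr4a1, Nr4a3, Egr1 and Cd69), against 3.97% of all tested genes, and 0 higher, against 4.33%. At an unadjusted p under 0.05 the counts in VAT were 4 lower and 0 higher, and DESeq2 called 4 lower and 0 higher. In Spl/LN 1 was called higher (Egr1), against 2.58%, and 0 lower, against 1.4%, with 3 higher and 0 lower at an unadjusted p under 0.05 and 1 and 0 by DESeq2.

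Among the NR4A genes, Nr4a1 and Nr4a3 fell in VAT. The log2 change was -1.04 ± 0.17 for Nr4a1 (adjusted p = 0.000986) and -1.12 ± 0.21 for Nr4a3 (adjusted p = 0.00208), so that both stood at 0.488 and 0.461 of their level with adjuvant alone. Nr4a2 was also lower in every immunized VAT library than in both control libraries, but its difference of -0.41 did not pass the test (95% interval -0.95 to 0.14, adjusted p = 0.409). In Spl/LN none of the 3 passed the test. The difference for Nr4a1 was 0.50 (0.15 to 0.85, adjusted p = 0.106) with no overlap between the groups, for Nr4a2 1.70 (0.67 to 2.73, adjusted p = 0.0614), and for Nr4a3 -0.23 (-0.73 to 0.26, adjusted p = 0.656). The unadjusted intervals of Nr4a1 and Nr4a2 exclude 0, and each of the 3 passed the threshold when a certain Spl/LN control library was left out. Without replicate 3 of that group Nr4a1 was at 0.66 (adjusted p = 0.0366), without replicate 2 Nr4a2 was at 3.45 (0.000374), and without replicate 1 Nr4a3 was at -0.56 (0.0290).

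The EGR genes did not move as a block. Egr1 gave 343, 490 and 530 normalized counts in Spl/LN with adjuvant alone and 933, 919 and 740 with adjuvant/Fat1562. In VAT it gave 1660 and 2421 with adjuvant alone, and 417, 342 and 542 with adjuvant/Fat1562. The tissue order was thus opposite in the 2 kinds of recipients: Egr1 was 4.48-fold higher in VAT with adjuvant alone (log2 2.16 ± 0.20, adjusted p = 5.07e-07) and lower in VAT with adjuvant/Fat1562 (-0.99 ± 0.19, adjusted p = 0.00123). Immunized VAT libraries overlapped the range of the Spl/LN libraries of control mice. Within VAT, Egr1 fell by 2.23 ± 0.20 on the log2 scale after immunization (adjusted p = 2.14e-06), and within Spl/LN it rose by 0.92 ± 0.18 (1.90-fold, adjusted p = 0.00782). Without Spl/LN adjuvant/Fat1562 replicate 2 the rise in Spl/LN was 0.88 and missed the threshold (adjusted p = 0.0507).

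Egr2, whose product induces inhibitors of TCR signaling, went the other way between tissues. It gave 155, 239 and 216 normalized counts in Spl/LN with adjuvant alone and 274, 225 and 321 with adjuvant/Fat1562, against 58.7 and 92.5, and 84.4, 66.3 and 66.7, in VAT. Every VAT library was below every Spl/LN library. Egr2 was lower in VAT by 2.70-fold with adjuvant alone (log2 -1.43 ± 0.27, adjusted p = 0.00100) and by 3.78-fold with adjuvant/Fat1562 (-1.92 ± 0.23, adjusted p = 1.26e-05). Immunization did not change it detectably, with differences of -0.06 in VAT (95% interval -0.63 to 0.52) and 0.43 in Spl/LN (-0.02 to 0.88). For each Egr2 read there were 3.61 to 6.74 Nr4a1 reads in Spl/LN libraries and 132 to 390 in VAT libraries, so Nr4a1 and Egr2 parted in the same libraries.

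Egr3, a close relative of Egr2, was scarce, at 22.4 to 67.3 normalized counts across all libraries. The VAT libraries with adjuvant alone were at 67.3 and 22.5, nearly the whole of that range, and the difference between tissues was 0.03 with a 95% interval of -0.97 to 1.02. With adjuvant/Fat1562 the VAT values of 30.4, 22.4 and 28.3 lay below the Spl/LN values of 37.3, 62.1 and 57.7 without overlap, but the difference of -0.95 (-1.86 to -0.04) did not pass the test after adjustment (adjusted p = 0.159). After immunization the difference was -0.74 in VAT (-1.75 to 0.27) and 0.24 in Spl/LN (-0.64 to 1.11). The remaining family member, Egr4, was at 0 in 10 of the 11 libraries.

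The transcripts of Cd69, the early activation antigen, were even between Spl/LN libraries and not in VAT. They were 1011, 954 and 1020 normalized counts in Spl/LN with adjuvant alone and 1069, 1106 and 1025 with adjuvant/Fat1562. The VAT libraries held 6474 and 4975 with adjuvant alone and 1982, 1427 and 1549 with adjuvant/Fat1562. Cd69 was 5.75-fold higher in VAT with adjuvant alone (log2 2.52 ± 0.13, adjusted p = 2.81e-10), and 1.55-fold higher with adjuvant/Fat1562 (0.63 ± 0.12, adjusted p = 0.00124). After immunization it fell in VAT by 1.79 ± 0.13 on the log2 scale (adjusted p = 1.90e-07), which by p-value was the 7th of all tested genes. In Spl/LN the difference was 0.10 (-0.15 to 0.35).

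Cd5, the slow reporter of the set, held between 3542 and 4137 normalized counts in all 11 libraries. The differences were 0.08 (95% interval -0.09 to 0.25) and -0.02 (-0.17 to 0.13) between tissues, with adjuvant alone and with adjuvant/Fat1562. After immunization they were 0.05 (-0.12 to 0.22) in VAT and 0.15 (-0.0015 to 0.30) in Spl/LN. None passed the test.

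**Figure D3:**
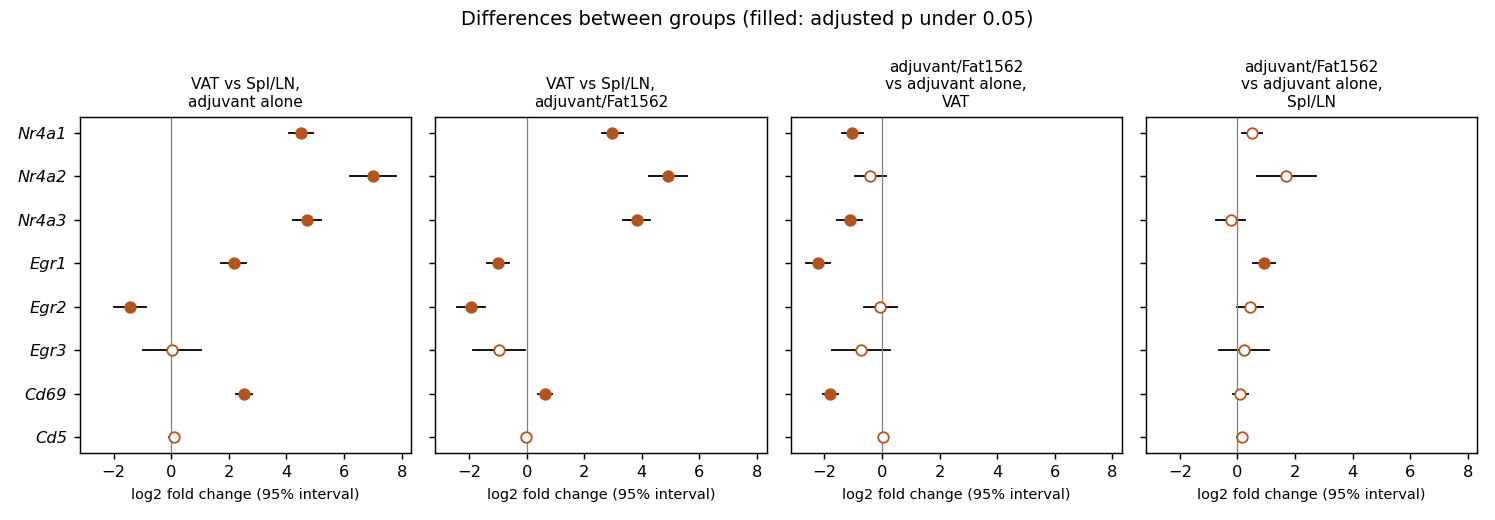
Log2 fold changes of the 8 transcripts (points) with 95% intervals (lines) in the 4 comparisons between groups, filled where the edgeR adjusted p was under 0.05. Filled points lie on the right of 0 for the NR4A genes and Cd69 in both tissue comparisons, and on the left for Nr4a1 (-1.04), Nr4a3 (-1.12), Egr1 (-2.23) and Cd69 (-1.79) after immunization in VAT.

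The effect of immunization itself differed between tissues for 4 of the 8, Egr1 and Cd69 most clearly. In the test of the interaction of tissue and immunization, which compares the log2 change in VAT with that in Spl/LN, these 4 were called lower in VAT, against 2.02% of tested genes, and 0 were called higher, against 1.7%, with 5 lower and 0 higher at an unadjusted p under 0.05 and 3 and 0 by DESeq2. Egr1 (-3.15 ± 0.27, adjusted p = 8.59e-06) and Cd69 (-1.89 ± 0.17, adjusted p = 1.43e-05) ranked 3rd and 4th by p-value among all 12932 genes. Nr4a1 (-1.54 ± 0.24, adjusted p = 0.00140) passed as well. Nr4a2 was at -2.11 ± 0.55 with an adjusted p of 0.0430, resting on the few reads in Spl/LN, and the call was lost with DESeq2 (adjusted p = 0.251), with quantile normalization (0.0688) and without any one of 9 of the 11 libraries (0.0676 to 0.130). Its value was -1.58 without Spl/LN adjuvant replicate 3 and -3.86 without replicate 2 of that group, the ends of the range with single libraries left out. Nr4a3, at -0.88 (-1.54 to -0.22, adjusted p = 0.143), did not pass.

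**Figure D4:**
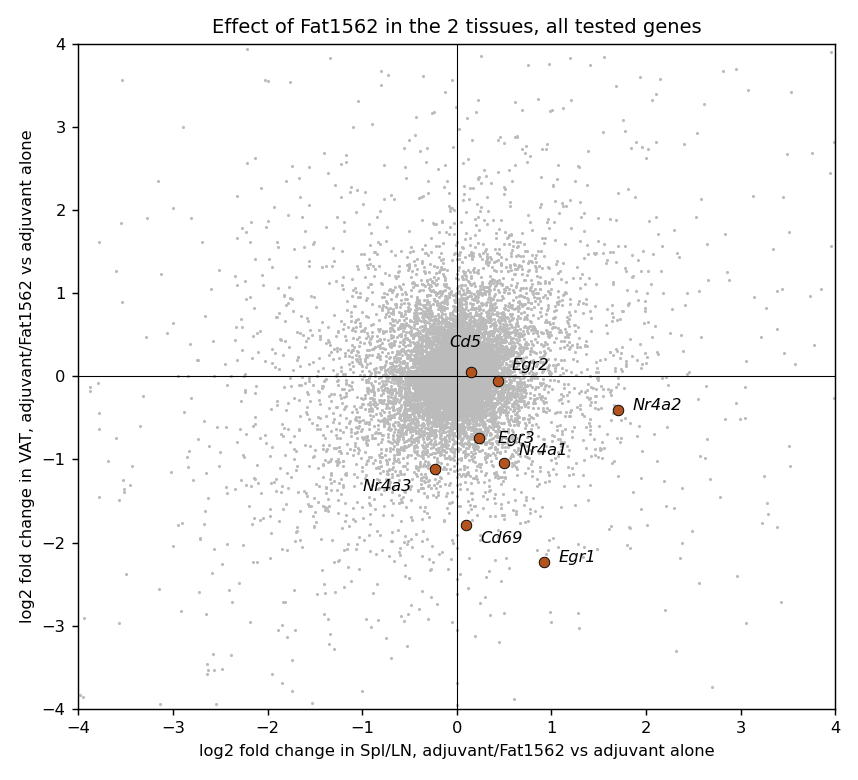
Log2 fold change with adjuvant/Fat1562 against adjuvant alone in Spl/LN (horizontal) and in VAT (vertical) for all tested genes (grey; 134 genes outside the axes at 4 are not drawn) and the 8 members (brown). The 2 axes share no library. Egr1 lies at 0.92 and -2.23, by size the 621st of 6466 rises in Spl/LN and the 146th of 6350 falls in VAT.

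To order the 8 transcripts by abundance, normalized counts were divided by the exon length of each gene in kilobases. In Spl/LN with adjuvant alone the means ran from Cd5 (726 per kb) through Nr4a1 (257), Cd69 (153), Egr1 (101), Egr2 (59.8), Nr4a3 (24.2) and Egr3 (10.04) to Nr4a2 (2.52), and only the neighbours Nr4a3 and Egr3 overlapped between libraries. In VAT with adjuvant alone Nr4a1 led with 5826 per kb, followed by Cd69 (879), Cd5 (768), Nr4a3 (635), Egr1 (455), Nr4a2 (315), Egr2 (22.2) and Egr3 (10.2), and there only Cd69 and Cd5 overlapped. In VAT with adjuvant/Fat1562 Nr4a1 still led (2841), then Cd5 (793), and the neighbours Nr4a3 (293), Cd69 (254) and Nr4a2 (238) overlapped, ahead of Egr1 (96.7), Egr2 (21.3) and Egr3 (6.14). The order in Spl/LN with adjuvant/Fat1562 was Cd5 (805), Nr4a1 (363), Egr1 (193), Cd69 (164), Egr2 (80.4), Nr4a3 (20.6), Egr3 (11.9) and Nr4a2 (7.85), where Egr1 overlapped Cd69 and Egr3 overlapped Nr4a2. At most 0.418% of the 38-base stretches of any of the 8, the length of 1 read, occur in other annotated genes, and those shared within the families were a few between Egr2, Egr3 and Egr4.

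Of 8 cofactors and relatives of these factors, 7 were tested. In VAT against Spl/LN 2 were higher and 1 lower with adjuvant alone (9.09% and 7.18% of all tested genes), and 1 higher and 1 lower with adjuvant/Fat1562 (8.26% and 6.73%). After immunization 2 rose and 2 fell in VAT (4.33% and 3.97%), and 1 rose and 2 fell in Spl/LN (2.58% and 1.4%). Nab2 and Nab1, corepressors that bind EGR proteins and are themselves EGR targets, rose after immunization in VAT (log2 0.71 for each, adjusted p = 0.0300 and 0.0112), and Nab2 also rose in Spl/LN (1.04, adjusted p = 0.00147). Tox2, related to the NR4A target Tox, was higher in VAT with adjuvant alone (1.15) and fell there with Fat1562 (-1.19), and its interaction was -1.61 (adjusted p = 0.00109). Rxra, which encodes the RXR partner of NR4A1 and NR4A2, was lower in VAT with adjuvant alone (-1.29) and with adjuvant/Fat1562 (-1.12). Ddx5 was higher in VAT in both settings (0.42 and 0.22) and fell after immunization in VAT (-0.51) and in Spl/LN (-0.31), where Rxra fell too (-0.86).

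Other genes that TCR signaling induces split in 2 after immunization in VAT. Of 32 such genes, 22 were higher and 6 lower in VAT with adjuvant alone (9.09% and 7.18% of all tested genes, median log2 fold change 1.30, against -0.03 over all tested genes), and 25 were higher and 1 lower with adjuvant/Fat1562 (8.26% and 6.73%, median 1.44, against -0.01). The largest tissue differences with adjuvant alone were those of the AP-1 subunits Fosb and Fosl2 (6.33 for each), while Cd83 (-1.82) and Cd200 (-1.36) were lower in VAT, and with adjuvant/Fat1562 those of Fosb (4.96) and Fos (4.60), with Nfatc1 lower (-0.85). After immunization in VAT 8 rose and 9 fell (4.33% and 3.97% of all tested genes). The inhibitory receptor Lag3 rose by 4.63 (adjusted p = 1.72e-09), from a mean of 117 ± 22.2 to 2876 ± 274 normalized counts (SD, n = 2 and 3), and Cd200 by 1.41, while Fosb (-1.92) and Fos (-1.70) fell. In Spl/LN 6 rose and 5 fell (2.58% and 1.4%), Lag3 (1.35) and Pdcd1 (1.17) rising most and Cd83 (-1.90) and Fos (-0.99) falling most. The interaction called 5 higher (1.7%), led by Lag3 (3.28) and Cd83 (2.62), and 5 lower (2.02%), led by Fosl2 (-1.79) and Nfkbid (-1.11).

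Among 20 genes of the TCR complex and proximal signaling, 2 were higher and 5 lower in VAT with adjuvant alone (median -0.07, against 9.09% and 7.18% of all tested genes), and 2 higher and 7 lower with adjuvant/Fat1562 (median -0.12, against 8.26% and 6.73%). Malt1 was higher (0.74 and 0.72) and Prkcq, which encodes protein kinase C theta, was lower (-1.06 and -1.67) in both. Lcp2 was also higher (0.27) and Lck lower (-0.43) with adjuvant alone, and Cd28 higher (0.34) and Lat lower (-0.71) with adjuvant/Fat1562. After immunization 6 rose and 3 fell in VAT (4.33% and 3.97% of all tested genes), with Zap70 (0.83) and Cd28 (0.81) against Prkcq (-0.80) and Rasgrp1 (-0.69), and 4 rose in Spl/LN (2.58%), led by Zap70 (0.74) and Cd4 (0.50). The interaction called 1 lower, Prkcq (-0.61), against 2.02%. Among attenuators of TCR signal, 20 of 21 were tested: with adjuvant alone VAT had 4 higher and 2 lower (9.09% and 7.18% of all tested genes), and with adjuvant/Fat1562 3 higher and 6 lower (8.26% and 6.73%). The cytokine-induced inhibitor Cish was higher in VAT with adjuvant alone (1.11) and fell after immunization (-0.98), and the phosphatase gene Ptpn6 was lower in VAT (-0.88) and rose (0.99). Sh2d2a was higher in VAT (0.59) and Csk lower (-0.50) with adjuvant alone. With adjuvant/Fat1562 Cblb (0.75) and Sh2d2a (0.57) were the highest of those called, and Ptpn6 (-0.87) and Dgka (-0.69) the lowest. In all, 5 attenuators rose and 3 fell after immunization in VAT (4.33% and 3.97% of all tested genes), Cblb (0.77) and Cd6 (-0.52) among them, and 5 rose in Spl/LN (2.58%), where Sla (1.01) and Ptpn6 (0.98) led. The interaction called Cblb higher (0.68, 1.7% of all tested genes), and 3 lower (2.02%), among them Cish (-0.77) and Ptpn7 (-0.59).

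Many genes known to be induced when tissue is digested and cells are handled were higher in VAT and fell there after immunization, as Nr4a1, Nr4a3 and Cd69 did. Egr2 went the other way between tissues, and Egr3 and Cd5 were not called. Of 28 such genes, 19 were higher and 0 lower in VAT with adjuvant alone (9.09% and 7.18% of all tested genes, median 2.27, or 1.98 with 3 genes near 0 in Spl/LN set at 3 reads), and 20 higher and 1 lower with adjuvant/Fat1562 (8.26% and 6.73%, median 0.97). DESeq2 also called 19 higher and 0 lower with adjuvant alone, and at an unadjusted p under 0.05 there were 20 and 0. Atf3, a stress-induced ATF factor, and Klf4 rose most in both settings. Atf3 was at no more than 1 read in any Spl/LN library and at 387 ± 210 normalized counts in VAT with adjuvant alone (SD, n = 2). Klf4 was at no more than 3 reads in Spl/LN and at 163 ± 58.7 in VAT with adjuvant alone. Klf2 was lower with adjuvant/Fat1562 (-1.72). The list summed to between 22054 and 29636 normalized counts per library in Spl/LN, 129454 and 151011 in VAT with adjuvant alone, and 62579 to 83860 in VAT with adjuvant/Fat1562. After immunization in VAT, 0 of the list rose and 14 fell (4.33% and 3.97% of all tested genes, median -0.68, against 0.01 over all tested genes), as by DESeq2, and at an unadjusted p under 0.05 the counts were 4 and 17. The falls were led by Atf3 (-3.69) and Klf4 (-2.56). Not all of the list went down. Means were higher in immunized than in control VAT, with no call, for the heat shock genes Hsph1 (510 to 1031 normalized counts), Hsp90aa1 (972 to 1250) and Hspa1a (65.1 to 290, SD 323 in the latter). The mean of the heat shock gene Dnaja1 was lower (2506 to 1643). In Spl/LN 3 rose and 5 fell (2.58% and 1.4%), Dnajb1 (0.99) and Dnaja1 (0.85) rising most and Fos (-0.99) and Socs3 (-0.93) falling most. The interaction called 1 higher, Socs3 (0.80), against 1.7%, and 7 lower, against 2.02%, led by Btg2 (-1.88) and Klf2 (-1.79). Handling was the same for both VAT groups as the methods describe it, but its part in the fall of Nr4a1, Nr4a3, Egr1 and Cd69 was not tested. The digestion list shares 7 genes with the list of TCR-induced genes (Fos, Fosb, Jun, Junb, Ier2, Ier3 and Dusp1). Of the other 25 TCR-induced genes, 15 were higher and 6 lower in VAT with adjuvant alone (median 0.88), 18 higher and 1 lower with adjuvant/Fat1562 (median 0.87), and 8 rose and 4 fell after immunization in VAT (median 0.21).

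**Figure D5:**
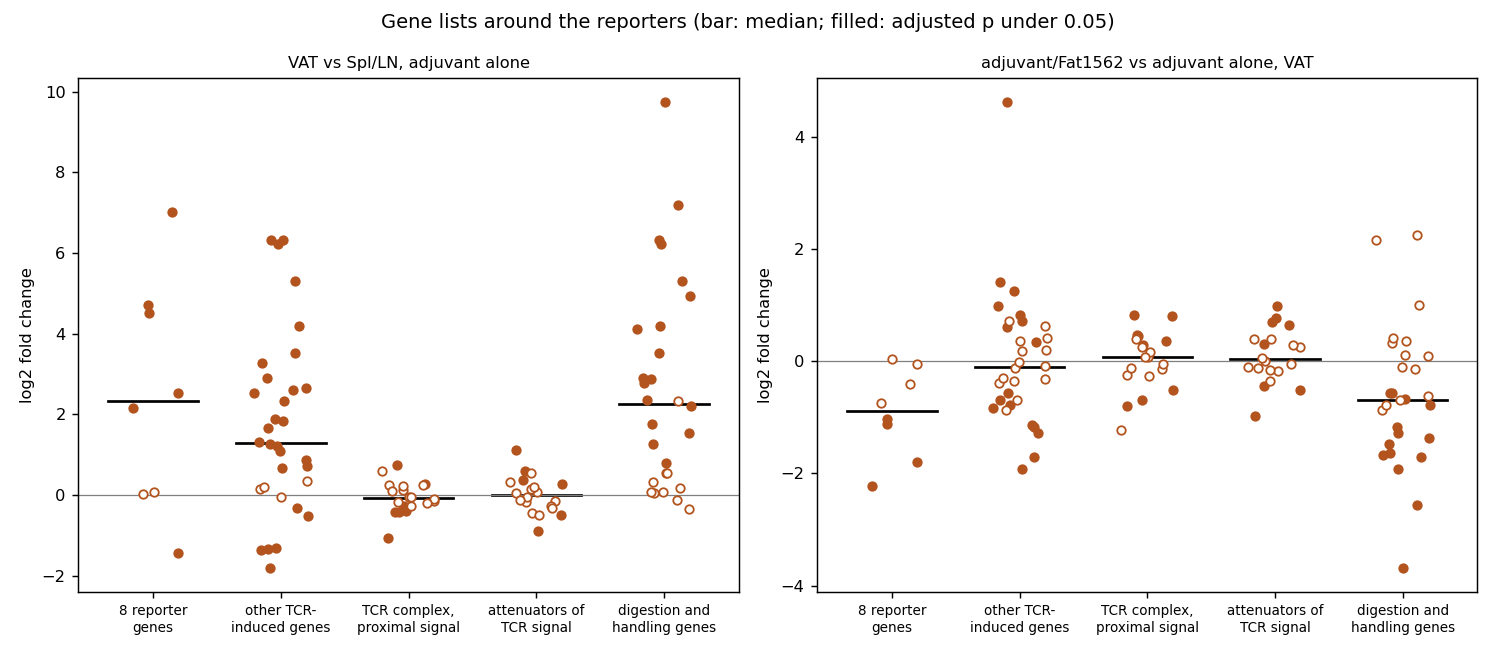
Log2 fold changes in VAT against Spl/LN with adjuvant alone (left) and after immunization in VAT (right) for the 8 reporter genes and 4 gene lists, each point a gene, filled where called by edgeR, with bars at the medians. Atf3 and Klf4, the highest points of the digestion list on the left, were near 0 in Spl/LN, so that their fitted values depend on the prior count. The digestion and handling list has its median at 2.27 on the left and at -0.68 on the right, and Lag3 stands at 4.63 among the TCR-induced genes on the right.

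Genes whose profile over the 11 libraries lay nearest to a member's were found by the root mean square difference of centred log2(normalized count + 1), over 8967 genes with a mean above 50, as a description. Nearest to Nr4a1 were Dgat1, an enzyme of triglyceride synthesis (0.23 log2 units), Gm26532 (0.30) and Sik1, a salt-inducible kinase (0.32). Dgat1 went from 266 ± 26.6 normalized counts in Spl/LN to 5199 ± 450 in VAT with adjuvant alone, and stood at 3114 ± 479 in VAT with adjuvant/Fat1562 (SD). Nr4a3 lay at 0.41 from Nr4a1, and Egr2 at 2.68. Nearest to Cd69 were Zfp36, which encodes an mRNA-decay factor (0.25), Btg2, an antiproliferative gene (0.26), and Gm4017 (0.31), with Egr1 at 0.69. Zfp36 and Btg2 also belong to the digestion and handling list, and Zfp36 went from 5761 ± 234 in VAT with adjuvant alone to 1859 ± 347 with adjuvant/Fat1562. Nearest to Egr2 were BE692007 (0.32), the lysophosphatidic acid receptor gene Lpar6 (0.35) and Lax1, an adaptor that limits antigen receptor signals (0.36). The points of these profiles share their libraries and groups, and no test was made of them.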

How the data were processed

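The authors deposited 1 table of counts, whole numbers per gene symbol without normalization, from paired 38-base Smart-seq2 reads of poly(A) RNA with no molecular identifiers named. The submitters' processing notes list STAR 2.5.4, featureCounts and mm10, whereas the methods name Cuffquant. The annotation and the use of strand are not given in the sources used here. The methods call the libraries biological replicates, and their mice are not identified. All 11 columns were matched to samples by name, with 0 left over.

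The 12932 genes with a mean scaled count above 10 in at least 1 group were fitted together with edgeR 4.0.16 in R 4.3.3 (TMM, quasi-likelihood test, library sizes from all rows, prior count 0.125), in one model of the 4 groups. Adjustment was by Benjamini-Hochberg across every tested gene, with calls at an adjusted p under 0.05. SE and 95% intervals come from the same test and cover the spread between libraries. The totals of 4490242 to 6570057 counts limit precision for Nr4a2 and Egr3. The settings varied were the filter (none, or a mean above 50), median-of-ratios size factors, the tool (DESeq2 1.42.0, or quantile normalization with limma 3.58.1), only the groups compared, the replicate block and each library left out. The steps were tested on simulated data with the same spread for all genes. Changes were set only in genes with a mean above 50, so the simulation does not cover transcripts as scarce as Egr3. Within groups, library pairs differed by more than sampling noise (chi-square per degree of freedom 5.62 to 11.9).

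The 8 members, the lists and the motifs were chosen with earlier results of these data known. Besides the members, the text names, in each list of TCR signaling, cofactor or digestion genes and each comparison, up to 2 called genes with the largest rise and 2 with the largest fall, the 3 genes nearest in profile to Nr4a1, Egr2 and Cd69, and markers. Lag3 group levels, and other values quoted for genes beyond this rule, were added after the values were seen. Exon lengths come from GENCODE vM21 (GRCm38) and promoters from RefSeq (GRCm38.p6).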

Additional observations from a re-analysis of the deposited data

Results flagged for a closer look

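The effect of immunization differed between VAT and Spl/LN for 4 of the 8 genes, by the interaction term of the edgeR fit. All 4 were called lower, against 2.02% of all tested genes, and 0 higher, against 1.7%. The change in VAT less the change in Spl/LN was -1.54 on the log2 scale for Nr4a1 (adjusted p = 0.00140), -2.11 for Nr4a2 (adjusted p = 0.0430), -3.15 for Egr1 (adjusted p = 8.59e-06) and -1.89 for Cd69 (adjusted p = 1.43e-05). For Egr1 the groups within each tissue did not overlap and moved in opposite directions. The value for Nr4a2 is the least secure, since its 3 Spl/LN control libraries held 4, 24 and 2 reads. Its call was lost with DESeq2 and with quantile normalization.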

How the results depend on the processing

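Of 712 values for the 8 genes in 5 comparisons under 18 alternatives, 678 kept their direction and their side of the threshold, 12 lost the call, 9 gained one and 13 changed sign. Counts of called members in the comparisons between tissues stayed at 6 to 7, in VAT after immunization at 4, and in the interaction at 3 to 5. In Spl/LN the count of 1 became 3 with no filter and 2 with a mean above 50 or quantile normalization, and ran from 0 to 2 with single libraries left out, being 0 without adjuvant/Fat1562 replicate 2. The signs that changed belonged to values near 0 or to scarce genes. With quantile normalization Cd5 went to -0.27 between tissues with adjuvant alone (adjusted p = 0.0179, lower in VAT) and to 0.13 in the interaction, and Egr3 to -0.077 between tissues. With single libraries left out Cd5 ran from -0.00092 to 0.068 in VAT and from -0.065 to 0.0042 between tissues with adjuvant/Fat1562, where it was also 0.0015. Egr2 in VAT ran from -0.36 to 0.30, and was 0.0019 without VAT adjuvant/Fat1562 replicate 2. Egr3 ran from -1.32 to 0.26 in VAT, from -1.55 to 0.026 in the interaction and from -0.98 to 0.60 between tissues with adjuvant alone, with -0.06 and -0.21 without Spl/LN adjuvant replicates 1 and 2. Where a VAT adjuvant library was left out, the lone library was assumed to vary like the other groups. The cause of these changes was not tested.

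Over all genes, the 515 calls in Spl/LN became 793 with no filter and 793 with DESeq2, and 190 to 500 with single libraries left out (lowest without adjuvant/Fat1562 replicate 2). The 481 calls of the interaction became 789 with DESeq2 and 236 to 581 with single libraries left out (lowest without VAT adjuvant replicate 1). Left-out libraries also gave 509 to 1397 against 1074 in VAT, 1250 to 2106 against 2103 and 1288 to 2374 against 1938 between tissues.

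With the replicate block the calls over all genes were 1803 and 1860 between tissues, 990 in VAT, 515 in Spl/LN and 437 in the interaction, and no call of a member changed. The correlation r of log2 levels, centred within each group, ran from -0.069 to 0.080 over all library pairs with the same number (15 pairs). Only Spl/LN and VAT libraries of the same injection could share mice. For those r was 0.071 and 0.080 with adjuvant alone, and 0.076, 0.022 and 0.059 with adjuvant/Fat1562. With different numbers and the same injection r ran from -0.105 to 0.051 between the tissues. The 2 VAT libraries with adjuvant alone mirror each other once centred. Their values of -0.071 and -0.080 with different numbers therefore repeat 0.071 and 0.080 with the sign turned. These small values cannot tell whether libraries with the same number share mice.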
